A study of Mus musculus with 6 samples.

Results

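The 10 immediate activation genes of T cells were followed in effector cells with and without activity of the drug transporter Mdr1: the transcription factor genes Egr1, Egr2 and Egr3, the orphan nuclear receptor genes Nr4a1, Nr4a2 and Nr4a3, and the dual-specificity phosphatase genes Dusp1, Dusp2, Dusp5 and Dusp6. They were chosen by name as genes that T cell receptor (TCR) signals induce, and they are 10 of the 23366 genes in the deposited count table. All 10 passed the filter on low counts, which left 10897 genes. The cells were CD4+ effector T cells that had been transferred into Rag-deficient mice, whose own lymphocytes do not mature, and the mesenteric lymph nodes were the source of all 6 samples, 6 weeks after transfer. The labels give FVB/N as the strain background for every sample. A sort on rhodamine 123 (Rh123), a fluorescent dye that Mdr1 pumps out, gave dye-low Mdr1+ and dye-high Mdr1- cells from the same site, each with 3 libraries numbered 1 to 3. The labels enter Mdr1+ and Mdr1- as a genotype or variation, but by the protocols the groups are fractions of a sort by dye signal. Whether a number stands for 1 mouse or a pool is not stated.

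TCR signals reach these genes within minutes through calcium and the factor NFAT and through the Ras-ERK kinase cascade. Egr proteins are zinc finger factors, and Egr2 and Egr3 in T cells are known both for early activation and for restraint of it. Nr4a proteins are nuclear receptors without a known natural ligand that rise with the strength of TCR signalling and are used to report it. The Dusp genes encode phosphatases that switch MAP kinases off: Dusp5 and Dusp6 act on ERK in the nucleus and the cytoplasm, Dusp2 is a nuclear phosphatase of lymphocytes, and Dusp1 acts mainly on p38 and JNK.

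The libraries held 2220691 to 20771456 counts in genes, and the Mdr1+ library of replicate 3 was the shallowest. A floor of 3 counts equals 0.144 to 1.35 CPM (counts scaled to equal library totals), far under the lowest value of any of the 10 genes. Cd4 was at 1023 to 1124 CPM in the 6 libraries, and the CD8 genes Cd8a and Cd8b1 lay at or under 1.56 CPM. In the deposited table the gene names of replicate 3 had to be put into another order before use, as described with the processing. That step leaves the Egr and Dusp genes on their rows (0 rows moved) and moves the Nr4a genes by 2 rows; on its deposited row, Nr4a2 would have 0 and 8 counts in the replicate 3 libraries. CPM values below are scaled by TMM (trimmed mean of M values), and fold changes are Mdr1+ over Mdr1- on the log2 scale, with standard errors.

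With TMM scaling the Egr genes and Nr4a1 were lower in Mdr1+ cells in each of the 3 replicate numbers, and Dusp2, Dusp5 and Nr4a2 were higher in each. Among the 10 genes 7 thus had the same direction in every number, against 52.8% of all tested genes (28.2% higher and 24.6% lower). For Nr4a2 this rests on the scaling: its ratio in replicate 3 was only 1.01, and by library totals it was lower in Mdr1+ there. For 2 of the 10, Egr3 and Dusp5, the groups did not overlap, as for 19.7% of all tested genes (8.71% higher and 11% lower). In edgeR's quasi-likelihood test with group as the only term 0 of the 10 passed an adjusted p of 0.05, against 2.22% of all tested genes (0.275% higher and 1.95% lower), and 3 (Egr3, Dusp2 and Dusp5) had an unadjusted p under 0.05. DESeq2 on the same design called 2 of them, Egr3 lower and Dusp5 higher, against 4.09% of the genes with an adjusted p (0.868% higher and 3.22% lower). Libraries of the same number deviated together, so a second edgeR fit took the number as a block. With the block 4 of the 10 fell (Egr1, Egr2, Egr3 and Nr4a1) and 2 rose (Dusp2 and Dusp5), against 12.4% of all tested genes called in either direction, 6.57% lower and 5.81% higher. DESeq2 with the block called these 6 and Nr4a2, higher, which makes 7, against 12.8% of the genes with an adjusted p (6.11% higher and 6.69% lower). Dusp1, Dusp6, Nr4a2 and Nr4a3 did not pass in either edgeR fit.

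**Figure D1:**
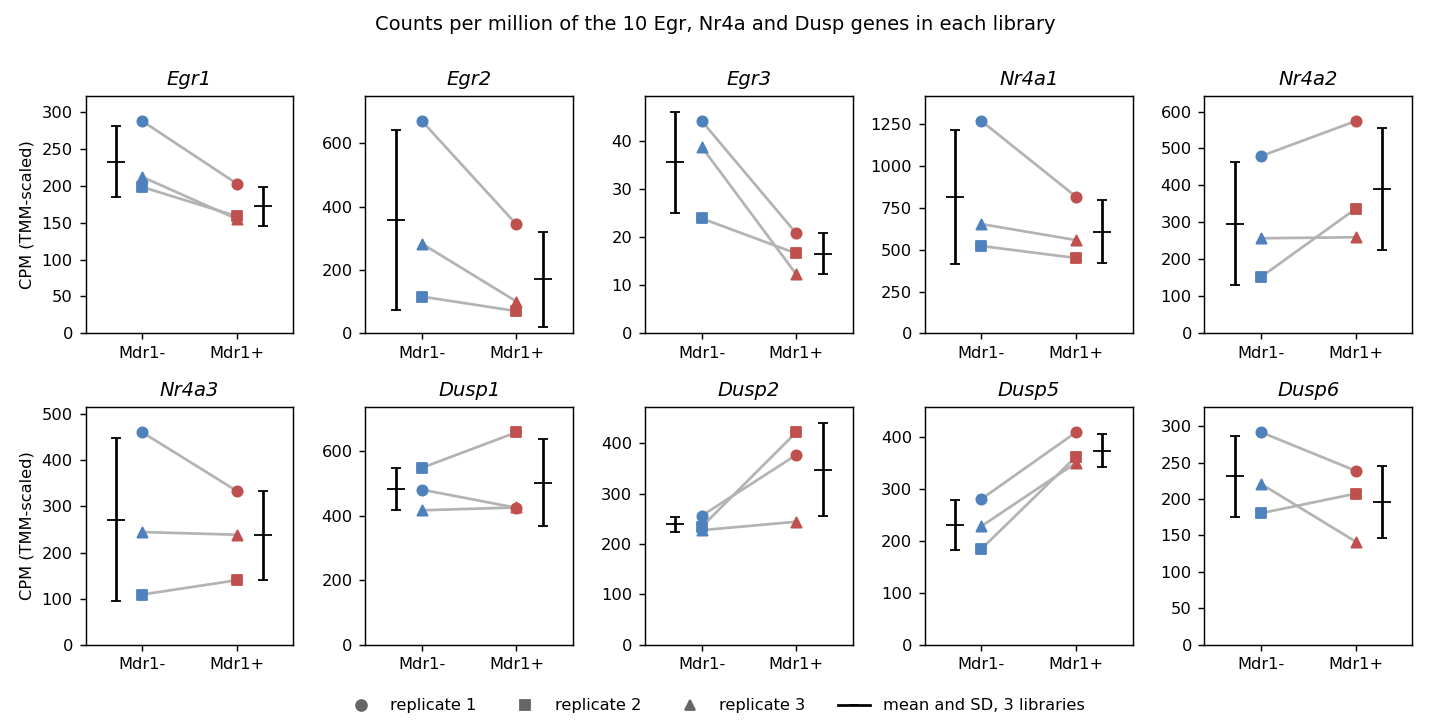
TMM-scaled CPM (y axis, linear from 0, own scale per gene) of the 10 genes in Mdr1- (blue) and Mdr1+ (red) libraries; symbols are replicate numbers, grey lines join libraries of one number, and each black bar spans 1 SD around the group's mean (n = 3). The lines fall in all 3 numbers for the Egr genes and Nr4a1 and rise in all 3 for Nr4a2 (nearly level in replicate 3), Dusp2 and Dusp5. Replicate 1 lies highest in both groups for the Egr and Nr4a genes.

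The promoters of these genes are among the places where the signals named above can act, and sites of NFAT were not searched. RefSeq (GRCm38.p6) promoter windows were searched for 8 of the 10, and Egr1 and Egr3 were not searched. The 4 of these 8 genes that passed with the block are shown, as the 250 bases before the annotated start, 5′ to 3′ on the gene's strand. Egr2 lies at chr10:67537619-67537868, plus strand, Nr4a1 at chr15:101266596-101266845, plus strand, Dusp2 at chr2:127335909-127336158, plus strand and Dusp5 at chr19:53528895-53529144, plus strand, all in GRCm38, a later build than that of the counts. Capitals mark matches to the CArG box, the DNA element of serum response factor, and to TGACG, the core of the cyclic AMP response element, which reads CGTCA on the other strand.
Egr2: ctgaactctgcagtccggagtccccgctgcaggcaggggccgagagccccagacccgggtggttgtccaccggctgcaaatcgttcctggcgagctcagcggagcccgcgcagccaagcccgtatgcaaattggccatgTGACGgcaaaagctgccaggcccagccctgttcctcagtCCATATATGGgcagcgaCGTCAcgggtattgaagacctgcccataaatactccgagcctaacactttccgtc
Nr4a1: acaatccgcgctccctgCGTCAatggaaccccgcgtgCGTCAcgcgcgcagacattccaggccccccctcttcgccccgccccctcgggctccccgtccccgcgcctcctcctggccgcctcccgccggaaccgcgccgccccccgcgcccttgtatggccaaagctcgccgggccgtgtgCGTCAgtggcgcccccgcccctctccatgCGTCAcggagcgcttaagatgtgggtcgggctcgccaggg
Dusp2: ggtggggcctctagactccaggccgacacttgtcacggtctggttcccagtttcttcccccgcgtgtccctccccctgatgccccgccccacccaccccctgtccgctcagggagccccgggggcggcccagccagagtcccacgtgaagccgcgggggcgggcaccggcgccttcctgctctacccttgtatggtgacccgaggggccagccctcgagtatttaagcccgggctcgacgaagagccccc
Dusp5: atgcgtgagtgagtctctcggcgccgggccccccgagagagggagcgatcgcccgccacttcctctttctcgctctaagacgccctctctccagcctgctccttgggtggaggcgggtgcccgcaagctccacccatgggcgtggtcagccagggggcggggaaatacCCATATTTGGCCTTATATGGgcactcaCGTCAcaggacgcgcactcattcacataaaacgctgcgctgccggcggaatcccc
A CArG box was present in 2 of the 8 windows, Egr2 with 1 and Dusp5 with 2 adjoining ones, against 1.47% of 32851 windows of the same length in the table. RefSeq gave 5 windows for Egr2, of which 1 was used. In both Egr2 and Dusp5 a CArG box begins 72 bases before the start used, and a TGACG match begins 55 bases before it. These 2 genes moved in opposite directions between the groups. TGACG on either strand was present in 6 of the 8 windows against 17.8% of all windows, with 4 sites each in Nr4a1, Nr4a2 and Nr4a3 and 3 in Dusp1, 2 of which overlap in 1 palindromic element. Neither motif was present in the windows of Dusp2 and Dusp6. On both strands, 5 of the 8 windows held GCGNGGG, the core Egr site (20.3% of all windows), 0 held the AP-1 site TGANTCA (6.75%), and 0 held the nuclear receptor core AGGTCA (14.0%). The letters TATAAA of the TATA box were in 1 window (12.4%), that of Nr4a2, on the other strand and 164 bases before the start. A match is a string of letters and shows no binding. In RefSeq, Egr2, Nr4a2 and Dusp6 overlap other annotated genes that have no row in the count table, and without a stated strand setting reads of such neighbours cannot be told apart from theirs.

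Among the Egr genes, Egr1, the founding member, was at 203, 159 and 155 CPM in the Mdr1+ libraries of replicates 1, 2 and 3 and at 288, 198 and 212 CPM in the Mdr1- libraries. The Mdr1+ library was lower in every number, by similar ratios of 0.705, 0.801 and 0.732, while the groups overlapped because replicate 1 stood above the others. The log2 fold change was -0.43 ± 0.20 without the block (adjusted p = 0.448) and -0.42 ± 0.09 with it (adjusted p = 0.014, edgeR). Group means were 172 ± 26.6 CPM for Mdr1+ and 233 ± 48.2 CPM for Mdr1- (SD, n = 3).

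Egr2, a regulator of T cell tolerance as well as activation, was at 344, 70.0 and 100.4 CPM in Mdr1+ and at 671, 116 and 283 CPM in Mdr1- cells for replicates 1, 2 and 3. Its level depended more on the replicate number than on the fraction: the highest library had 9.58 times the CPM of the lowest, the widest range among the 10 genes, and the Mdr1+ library of replicate 1 exceeded both other Mdr1- libraries. Within numbers the Mdr1+ to Mdr1- ratios were 0.513, 0.603 and 0.355. The log2 fold change was -1.05 ± 0.69 without the block (adjusted p = 0.630) and -1.03 ± 0.13 with it (adjusted p = 0.0017). In the fit without the block, this value became -0.22 without the Mdr1- library of replicate 1 and -2.11 without the Mdr1+ library of replicate 1.

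Egr3, which acts with Egr2 in T cells, was the lowest of the 10 genes, at 20.8, 16.6 and 12.3 CPM in Mdr1+ and 44.1, 23.9 and 38.7 CPM in Mdr1- cells. The 3 Mdr1+ libraries lay below the 3 Mdr1- libraries, and the ratios within numbers were 0.471, 0.695 and 0.317. The Mdr1+ value of replicate 3 rests on 26 counts. The log2 fold change was -1.08 ± 0.30 without the block (adjusted p = 0.143) and -1.01 ± 0.22 with it (adjusted p = 0.021), and DESeq2 without a block gave an adjusted p of 0.029. By exact permutation of the CPM values (two-sided) p was 0.1 for Egr3, the smallest that 3 against 3 libraries allow, 0.2 for Egr1 and 0.5 for Egr2. Egr4, the remaining family member and chosen here after its values were seen, had 1 to 7 counts in the Mdr1+ libraries, and lay at 0.327 to 0.472 CPM in Mdr1+ and 1.64 to 2.21 CPM in Mdr1- libraries. It entered the test only through the Mdr1- libraries, where it is high, which favours that direction, and it did not pass (adjusted p = 0.133, and 0.076 with the block).

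The Mdr1- library of replicate 3 held transcripts of myeloid cells, which also use Egr and Dusp genes. Of 8 myeloid markers in the table (Lyz2, Cd14, Csf1r, Itgam, Il1b, Emr1, S100a8 and S100a9) the summed level was 85.1 CPM there, against 1.64 and 3.35 CPM in the other Mdr1- libraries and 0.467 to 6.60 CPM in the Mdr1+ libraries. Without replicate 3 the edgeR fit with the block gave -0.44 for Egr1, -0.87 for Egr2 and -0.81 for Egr3, all past the threshold (adjusted p = 0.0069, 0.00082 and 0.0093). That fit called 2478 of 11177 tested genes, against 1349 of 10897 in the fit with the block on all libraries. The part of myeloid cells in the levels of the Egr genes was not tested. Cell cycle genes moved with the groups too: all 10 of a list that includes Mki67, Top2a and Cdk1 fell without the block, and their summed level was 573 to 689 CPM in Mdr1+ and 2318 to 3451 CPM in Mdr1- libraries. The part of cycling cells in the levels of the Egr, Nr4a and Dusp genes was not tested, and in sorted bulk RNA fewer cells that express a gene and less RNA per cell cannot be told apart.

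Of the Nr4a genes, Nr4a1 passed with the block, and Nr4a2 and Nr4a3 passed in neither edgeR fit. Nr4a1 (Nur77), the member used most as a reporter of TCR signals, was at 818, 451 and 558 CPM in Mdr1+ and 1270.3, 522 and 654 CPM in Mdr1- cells for replicates 1, 2 and 3. It was lower in Mdr1+ cells in every number, with ratios of 0.644, 0.863 and 0.853, but the groups overlapped. The log2 fold change was -0.42 ± 0.35 without the block (adjusted p = 0.710) and -0.36 ± 0.10 with it, just past the threshold (adjusted p = 0.047). Without replicate 1 the fit with the block gave -0.29 and the call was lost (adjusted p = 0.068).

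Nr4a2 (Nurr1) was at 574, 337 and 259.8 CPM in Mdr1+ and 479.6, 153 and 257 CPM in Mdr1- cells. The ratio within replicate 2 was 2.21, while those within replicates 1 and 3 were 1.20 and 1.01, so the difference came mostly from 1 pair. It did not pass in edgeR, with log2 fold changes of 0.40 ± 0.42 and, with the block, 0.49 ± 0.18 (adjusted p = 0.773 and 0.120), but passed in DESeq2 with the block (0.46, adjusted p = 0.039). With the block and without replicate 2 the value fell to 0.15 (adjusted p = 0.612). Nr4a3 (Nor1) was at 334, 139.8 and 239 CPM in Mdr1+ and 461, 109 and 245 CPM in Mdr1- cells, lower in replicate 1, higher in replicate 2 and nearly level in replicate 3. Its log2 fold change was -0.20 ± 0.48 without the block and -0.05 ± 0.14 with it (adjusted p = 0.918 and 0.857).

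Shares within the family do not depend on the scaling between libraries, but they sum to the whole, so those of a family are not independent of each other. Nr4a1 made up 47.4%, 48.6% and 52.8% of the summed Nr4a counts in Mdr1+ and 57.4%, 66.7% and 56.6% in Mdr1- libraries. Nr4a2 made up 33.3%, 36.3% and 24.6% in Mdr1+ and 21.7%, 19.5% and 22.3% in Mdr1- libraries. The groups did not overlap for either share (two-sided exact permutation p = 0.1 for each, the smallest possible), whereas the share of Nr4a3, 15.1% to 22.6% and 13.9% to 21.2%, overlapped (exact permutation p = 1). The 3 Egr shares and those of Dusp1 and Dusp6 overlapped between the groups, while within the 4 Dusp genes the shares of Dusp2 and Dusp5 did not. By CPM alone 19.7% of all tested genes did not overlap, and no background was taken for shares within a family.

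Of the phosphatase genes, Dusp5 and Dusp2 passed with the block, and Dusp1 and Dusp6 passed in neither edgeR fit. Dusp5, the nuclear phosphatase of ERK, was at 409, 362 and 349.9 CPM in Mdr1+ and 280.4, 184 and 228 CPM in Mdr1- cells. The groups did not overlap, and the ratios within numbers were 1.46, 1.97 and 1.53. Its log2 fold change was 0.69 ± 0.19 without the block (adjusted p = 0.144) and 0.72 ± 0.10 with it (adjusted p = 0.0029), and DESeq2 without a block gave an adjusted p of 0.038. It passed with the block in each fit that left out a replicate number, at 0.58 to 0.74. The exact permutation p on CPM was 0.1.

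Dusp2 (PAC1) was at 377, 422 and 244 CPM in Mdr1+ and 256, 234 and 228 CPM in Mdr1- cells. The Mdr1- libraries lay close together at 239 ± 15.0 CPM (SD, n = 3). The Mdr1+ library of replicate 3 lay within their range, so the groups overlapped. The log2 fold change was 0.54 ± 0.22 without the block (adjusted p = 0.356) and 0.52 ± 0.13 with it (adjusted p = 0.033). The call with the block was lost without replicate 1 (0.43, adjusted p = 0.057), without replicate 2 (0.34, adjusted p = 0.134) and with library totals in place of TMM (0.46, adjusted p = 0.063).

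Dusp6, the cytoplasmic phosphatase of ERK and a common readout of ERK activity, was at 239, 208 and 141 CPM in Mdr1+ and 292, 181 and 221 CPM in Mdr1- cells. It was lower in replicates 1 and 3 and higher in replicate 2, at -0.23 ± 0.25 on the log2 scale (adjusted p = 0.775) or, with the block, -0.22 ± 0.14 (adjusted p = 0.356), and in edgeR it passed with the block only where replicate 2 was left out (-0.45, adjusted p = 0.036). Without replicate 3 the value with the block was -0.066 (adjusted p = 0.654), and without the Mdr1+ library of replicate 3 the value without the block was -0.050. Dusp1 was at 425, 659 and 426 CPM in Mdr1+ and 481, 549 and 417 CPM in Mdr1- cells, with replicate 2 highest in both groups. Its log2 fold change was 0.06 ± 0.22 without the block and 0.04 ± 0.10 with it (adjusted p = 0.948 and 0.830).

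**Figure D2:**
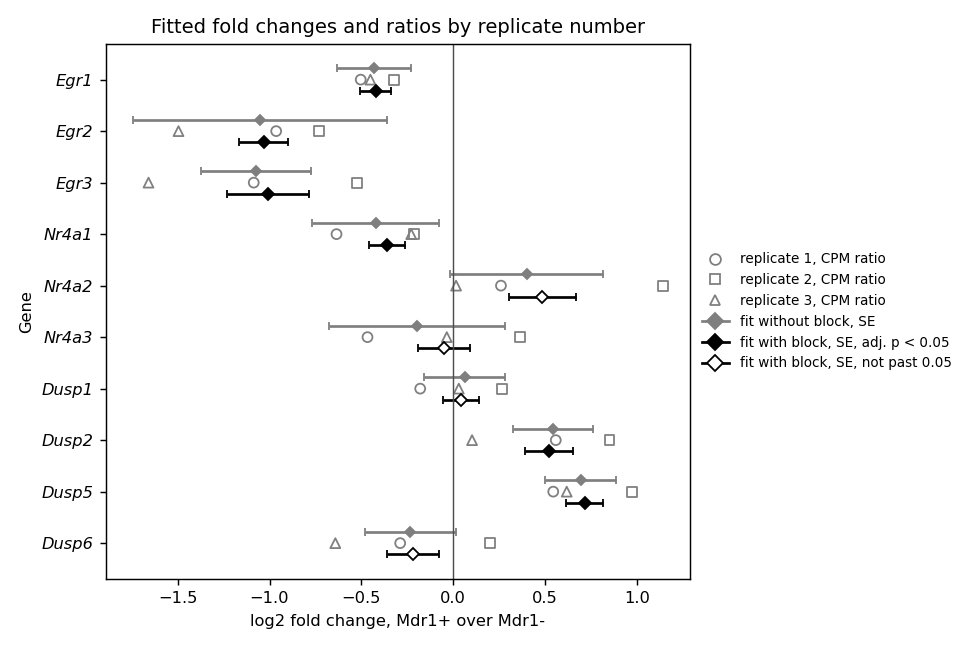
log2 fold change of Mdr1+ over Mdr1- (x axis) for each of the 10 genes (y axis); open symbols are the CPM ratios of the 3 replicate numbers, grey diamonds the edgeR fit without the block and black diamonds the fit with it (filled where the adjusted p was under 0.05), with bars of 1 SE. The SE of Egr2 shrinks from 0.69 to 0.13 with the block, and Egr1, Egr2, Egr3, Nr4a1, Dusp2 and Dusp5 are filled.

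Ratios of 2 genes within a library need no scaling and cancel what a library shares. The ratio of Dusp5 to Egr1 counts was 2.01, 2.28 and 2.26 in Mdr1+ and 0.974, 0.928 and 1.08 in Mdr1- libraries, so that the groups stood well apart with little spread in either. The ratio of Dusp2 to Egr1 was 1.86, 2.66 and 1.57 against 0.890, 1.18 and 1.07. Within the phosphatases that act on ERK, the ratio of Dusp5 to Dusp6 was 1.71, 1.74 and 2.47 in Mdr1+ and 0.961, 1.02 and 1.03 in Mdr1- libraries. The ratio of Nr4a2 to Nr4a1 was 0.702, 0.748 and 0.466 against 0.378, 0.292 and 0.393. These 4 ratios were singled out of 45 pairs of the 10 genes after their values were seen. Of the 45 pairs 15 did not overlap between the groups, and no background was taken for ratios of other gene pairs. By CPM of single genes 19.7% of all tested genes did not overlap. The pairs share genes, and the two-sided exact permutation p of each of the 4 was 0.1, the smallest that this design allows.

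**Figure D3:**
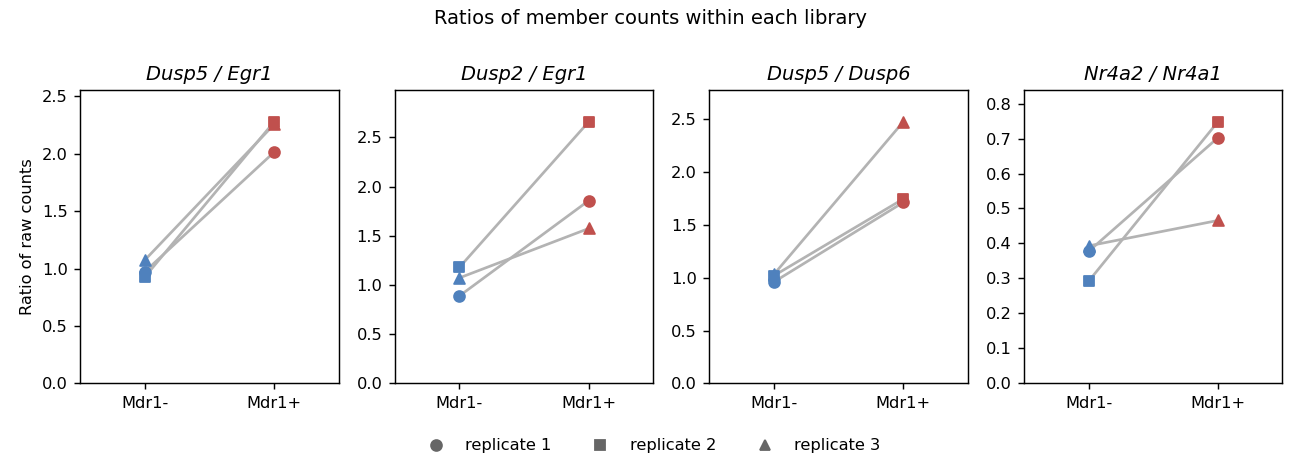
Ratio of raw counts of 2 genes in the same library (y axis, linear from 0, own scale per panel) in Mdr1- (blue) and Mdr1+ (red) libraries; symbols are replicate numbers and grey lines join libraries of one number. All 3 Mdr1+ libraries lie above all 3 Mdr1- libraries in each panel, at 2.01 to 2.28 against 0.928 to 1.08 for Dusp5 over Egr1.

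The replicate number set much of the level of these genes. Replicate 1 had the highest mean of its 2 libraries for the 3 Egr and the 3 Nr4a genes, and replicate 2 the lowest. Between these replicate means the range on the log2 scale was 2.41 for Egr2, 1.67 for Nr4a3, 1.21 for Nr4a2 and 1.07 for Nr4a1, against 0.44 for Egr1 and 0.39 for Dusp5. For Dusp1 and Dusp2 replicate 2 was the highest. Per kilobase of the principal transcript (GENCODE M21, a build other than that of the counts), Dusp1 and Nr4a1 were highest in Mdr1+ cells, at 253 ± 67.9 and 238 ± 74.0 CPM per kilobase, followed by Dusp2 at 215 ± 57.2 (SD, n = 3), and these 3 did not differ beyond their spread. Dusp5 followed at 151 ± 12.6 CPM per kilobase, and Egr3 was last at 4.20 ± 1.08, under Egr1 at 38.4 ± 5.94. In Mdr1- cells Nr4a1 ranked first at 319 ± 156 CPM per kilobase, Egr2 ranked 4 in place of 7 at 120.3 ± 96.0, and Egr3 was again last at 9.02 ± 2.66.

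Genes with the most similar pattern over the 6 libraries were sought by the root mean square difference of centred log2 CPM, for the gene with the highest mean log2 CPM in each family. For Egr1 they were Rasl11a, Cfl1 and Usp1 (differences of 0.06, 0.08 and 0.08, against a median of 0.46 over the other tested genes). For Nr4a1 they were Tnfaip8, Zswim4 and Tnfsf11, which encodes RANK ligand (0.13, 0.14 and 0.14 against a median of 0.61), and for Dusp1 they were Mdp1, Med25 and Sept1 (0.05, 0.06 and 0.07 against 0.41). Of these 9 genes only Cfl1, the gene of the actin-severing protein cofilin, passed with the block, lower in Mdr1+ cells (-0.43, adjusted p = 0.019), and in edgeR without it none of the 9 did.

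Other genes of the same pathways were grouped in lists by their known role, and the genes named from each are mostly those with the largest fold changes past the threshold. Over these lists and the cell cycle list 11 genes passed in edgeR without the block, 10 of them cell cycle genes. Over the same lists 21 genes had an unadjusted p under 0.05. The counts of each list stand beside 2.22% of all tested genes called without the block and 12.4% with it. Of 17 tested further dual-specificity phosphatase genes 0 passed without the block, and with it 2 rose and 1 fell. Dusp10, a phosphatase of p38 and JNK, was at 793, 481 and 696 CPM in Mdr1+ and 625, 333 and 368 CPM in Mdr1- cells (0.59 ± 0.11, adjusted p = 0.0099), and Ssh2, which encodes a cofilin phosphatase, rose by 0.36 ± 0.08. Dusp14 was at 21.8, 10.7 and 1.89 CPM in Mdr1+ and 66.1, 23.1 and 38.5 CPM in Mdr1- cells (-1.77 ± 0.36, adjusted p = 0.015). The groups did not overlap for Dusp14. The list's median was 0.12 without the block and 0.07 with it, beside 0.04 and 0.03 over all tested genes.

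Among 23 tested other immediate early genes 0 passed without the block, and with it 4 rose and 2 fell. Fos was at 726, 897 and 424 CPM in Mdr1+ and 1225, 1176 and 725 CPM in Mdr1- cells (-0.64 ± 0.10, adjusted p = 0.0038), and Srf, which encodes the factor that binds the CArG box, fell by 0.51 ± 0.14 (adjusted p = 0.042). Fosl2, a relative of Fos, was at 1016, 373 and 931 against 668, 155 and 398 CPM (1.03 ± 0.13, adjusted p = 0.0016), and the antiproliferative gene Btg2 rose by 0.51 ± 0.09. The list's median was 0.16 in both fits. Fos and Fosl2, genes of 1 family, thus moved in opposite directions. Of the members, the calls of the fit with the block were lower for Egr1, Egr2, Egr3 and Nr4a1, the only call among the Nr4a genes. They were higher for Dusp2 and Dusp5, while outside the members Dusp10 rose and Dusp14 fell.

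Of 14 tested corepressors, reported targets and partners of Egr and Nr4a proteins, 1 rose without the block, and with it 2 rose and 1 fell. Fasl, the death ligand gene that Egr factors can activate, was at 327, 263 and 315 CPM in Mdr1+ and 133, 82.8 and 106 CPM in Mdr1- cells, higher while the Egr genes were lower (1.51 ± 0.10 with the block, adjusted p = 0.000084). Cblb, the gene of an E3 ligase that restrains TCR signalling, was at 356, 285 and 368 against 274, 170 and 237 CPM without overlap (0.59 ± 0.10, adjusted p = 0.0053). Tox2 fell (-1.21 ± 0.31, adjusted p = 0.038), and the Egr corepressor genes Nab1 and Nab2 had values of 0.17 and 0.25 that did not pass (adjusted p = 0.224 and 0.231). The list's median was 0.28 without the block and 0.27 with it.

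Genes of the signalling machinery upstream are set beside 12.4% of all tested genes called with the block and 2.22% without it. Of 21 tested genes of the Ras-ERK cascade and its feedback 1 passed with the block, Rasa1, a Ras inactivator (0.40 ± 0.11, adjusted p = 0.041). Of 10 tested p38 and JNK kinase genes 0 passed in either edgeR fit, and 1 of them, Mapk14, which encodes p38 alpha, had an unadjusted p under 0.05 with the block (-0.23, adjusted p = 0.120). The most abundant of these 10, Map3k1 and Map3k5, were at 0.12 and 0.02 with the block, and the list ranged from -0.40 for Mapk11 to 0.15. Of 21 genes of TCR signalling, calcineurin and NFAT 1 passed with the block, Ptpn22, a phosphatase that dampens TCR signals (0.48 ± 0.08, adjusted p = 0.0079). The medians of these 3 lists with the block were -0.02, 0.02 and 0.05. In all 3 replicate numbers 4 of the Ras-ERK genes were higher in Mdr1+ cells and 7 lower, 1 of the p38 and JNK genes was higher and 4 lower, and 9 of the TCR genes were higher and 1 lower, against 28.2% higher and 24.6% lower over all tested genes. In the fit without the block 0 genes of these 3 lists passed, and values that miss the threshold do not show that the groups were alike.

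Of 22 early activation genes 0 passed without the block, and with it 3 rose and 2 fell. Cd40lg, the helper ligand gene, fell by 0.69 ± 0.14 and Pdcd1, which encodes PD-1, by 0.61 ± 0.14 (adjusted p = 0.016 and 0.022), while Il2ra, which encodes the interleukin 2 receptor alpha chain, and Tnfrsf18, which encodes GITR, rose by 0.61 ± 0.16 and 0.52 ± 0.10 (adjusted p = 0.043 and 0.012). Cd69, a surface marker of recent TCR signals chosen here after its values were seen, did not pass (-0.07, adjusted p = 0.764). Of 8 inducible heat shock genes, which respond to handling of cells, 4 rose with the block (Hspa1b, Hspa1a, Dnajb1 and Hsph1, by 0.38 to 0.74) and 0 without it. Their summed level was 749 to 1125 CPM in Mdr1+ and 555 to 854 CPM in Mdr1- libraries, highest in replicate 1 in both groups, as for the Egr and Nr4a genes. Their part in the results was not tested.

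**Figure D4:**
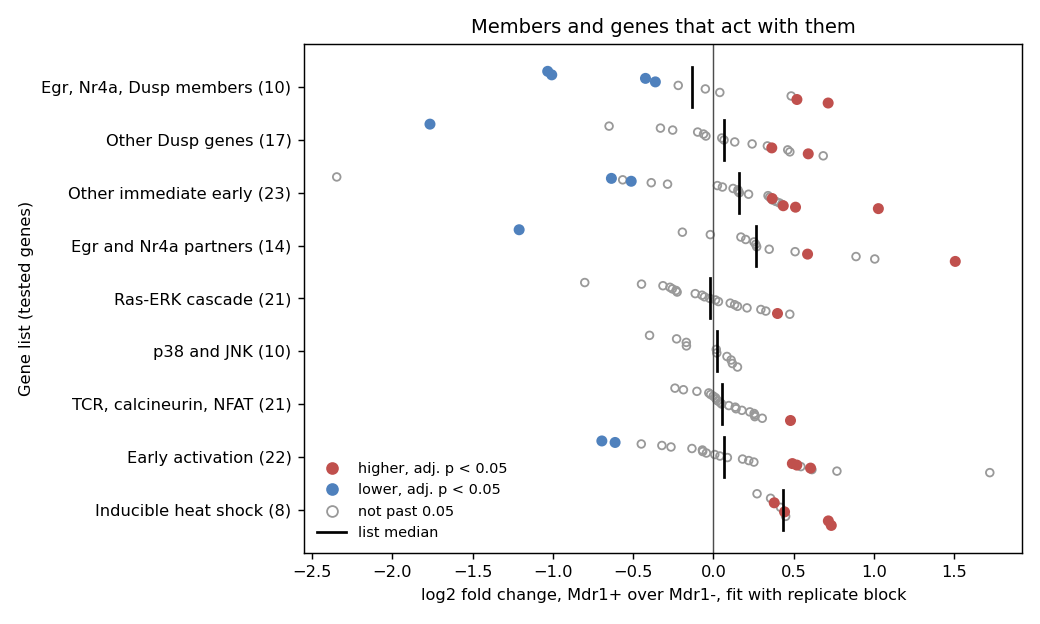
log2 fold change of Mdr1+ over Mdr1- in the fit with the replicate block (x axis) for the tested genes of each list (y axis, number tested in parentheses); red and blue points passed an adjusted p of 0.05, open points did not, and black lines are list medians. The 10 Egr, Nr4a and Dusp genes have 4 lower and 2 higher calls around a median of -0.13. The p38 and JNK list has 0 calls among 10 genes, and over all tested genes 12.4% were called.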

How the data were processed

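The authors deposited raw read counts per gene symbol for 6 libraries, 3 per sorted fraction, grouped and numbered by the sample titles. Per the submitters' processing notes TopHat, HTSeq, DESeq2 and the build mm9 were used, while tool versions, gene annotation and strandedness of counting are not given in the labels or headers. Per the labels' protocols the kit was a stranded total RNA kit. The deposited table lists reads without a unique position as 67.0% to 73.2% and reads in no feature as 13.2% to 19.7% of entries in replicates 1 and 2; these rows were left out of library sizes and tests.

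The columns of replicate 3 were assigned to the gene names sorted ignoring case. Spearman's rho across genes between these and the other libraries was 0.424 to 0.460 in the deposited order and 0.926 to 0.962 after that. Tests used edgeR 4.0.16 in R 4.3.3 (TMM, filterByExpr, robust quasi-likelihood F test on group, Benjamini-Hochberg over 10897 genes, threshold 0.05); the test was tested on simulated data. DESeq2 1.42.0, RLE scaling, library totals, no filter, a replicate block and left-out libraries were alternatives. Same-numbered libraries deviated from their group means together (r = 0.41, 0.57 and 0.21 across genes for replicates 1, 2 and 3), so the numbers were treated as pairs; that rests on these correlations, since no label states a pairing. The labels do not say whether replicates are separate animals, and p-values then cover only library-to-library spread, which may be technical. Depths of 2220691 to 20771456 counts limit precision by counting error; reads carry no molecular identifiers.

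All 10 genes were named, and from each further list up to 4 genes past the threshold without and up to 4 with the block, by size. The genes and lists were chosen with earlier results of these data known. Promoter sequences are from RefSeq, GRCm38.p6. The lists also held markers of T, CD8, NK, B, myeloid, dendritic, stromal and epithelial cells; with the block the B cell gene Cd22 rose, and Lyz2 (myeloid), Cd74 and H2-Aa (dendritic) and Acta2 (stromal) fell, Acta2 also without it. Lyz2, H2-Aa and Acta2 had few counts in Mdr1+ and passed the filter on low counts mainly through the Mdr1- libraries, which favours that direction.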

Additional observations from a re-analysis of the deposited data

How the results depend on the processing

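Without a block 0 of the 10 genes passed in edgeR with TMM, with RLE scaling, with library totals, without the filter on low counts, or in any fit that left out 1 library or 1 replicate number (range 0 to 0). DESeq2 called 2. With the replicate block the count was 6, also with RLE scaling, 5 with library totals and 7 in DESeq2; leaving out a replicate number gave 4 to 6. The alternatives with the block beyond the first, and library totals, were chosen after seeing the data. Over all genes the count of 242 became 1349 with the block (1344 with RLE scaling, 1250 with library totals, 1399 in DESeq2 with it) and 485 in DESeq2. It ranged from 0 to 210 where 1 library or number was left out, and with the block was 1130, 651 and 2478 without replicates 1, 2 and 3. The 0 arose without replicate 3, where 904 genes had an unadjusted p under 0.05 in edgeR. Over the pathway and cell cycle lists 11 genes passed, 10 of them cell cycle genes, and 33 passed with the block. Where a number was left out 0 to 9 passed without the block, with 17 at an unadjusted p under 0.05 without replicate 3. The causes of these differences were not tested, except that leaving out libraries leaves fewer samples.

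The direction turned in some alternatives for Nr4a1, Nr4a2, Nr4a3 and Dusp1. Over the fits that left out libraries without the block, Nr4a1 ranged from -0.73 to 0.017 (without the Mdr1- library of replicate 1) and Nr4a2 from -0.016 (without the Mdr1+ library of replicate 1) to 0.91. Nr4a3 ranged from -0.58 to 0.41 over the same fits, and was 0.11 with the block without replicate 1. Dusp1 ranged from -0.18 to 0.17, and was -0.025 with the block on library totals and -0.076 with the block without replicate 2. The other 6 genes kept their direction in all 20 alternatives. The shallowest library limits Egr3 most, at 26 counts.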
